A study of Rattus norvegicus with 2 samples.

Results

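To locate where FOSL1 peaks crowd together in Schwann cell chromatin, the summits of all peaks on rat chromosomes 1 to 20 were sorted, and neighbours at most 5000 bp apart were joined into runs. Runs of 5 or more peaks are called dense runs here. They held 10386 of the 103261 autosomal peaks, or 10.1% (exact 95% binomial interval 9.88 to 10.2%), and 10386 of the 104960 peaks in the whole deposited list. The members were chosen by the positions of the peaks, so that spacing, span, width and enrichment, which come from the same comparison of ChIP with input, are described here and not tested.

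The peaks come from primary Schwann cells, the glia that ensheathe peripheral axons, isolated from sciatic nerves of newborn wild-type rats and infected with a lentivirus that drives FOSL1 with a triple FLAG tag from a CMV promoter. Chromatin was fixed with 1% formaldehyde for 15 min. It gave 1 library precipitated with an anti-FLAG antibody and 1 input library with no antibody, and the input cells carried the same lentivirus by their labels. The list was called by the authors on the ChIP library against the input. Without a replicate, a control virus or a control antibody, the peaks describe tagged, overexpressed FOSL1, and intervals cover counting error only. The purity of the Schwann cells could not be checked against marker genes, because the list measures binding and not expression. Positions are those of the rat build rn6, counted from 1.

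FOSL1, also known as FRA1, belongs to the FOS family and binds DNA as a dimer with a JUN protein. This dimer is the AP-1 transcription factor, which recognises short sites of the form TGANTCA, usually with C or G in the middle. In Schwann cells AP-1, with c-Jun as its best-known member, is linked to the repair state that follows nerve injury. Regulatory DNA often holds several protein-bound elements within a few kilobases, as around an active gene, so that neighbouring peaks can belong to separate elements of the same stretch.

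Dense runs were few and mostly small. The 103261 peaks formed 68083 runs, of which 1663 (2.44%, interval 2.33 to 2.56%) were dense. Peaks with no neighbour made up 46.4% of the list, pairs 23.8%, runs of 3 peaks 12.7% and runs of 4 peaks 7.05%. Among the dense runs 811 had 5 peaks, 384 had 6 and 181 had 7, and 1 run each had 19, 20, 22 and 24 peaks. The median dense run had 6 peaks, and the 95th percentile was 10.

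**Figure D1:**
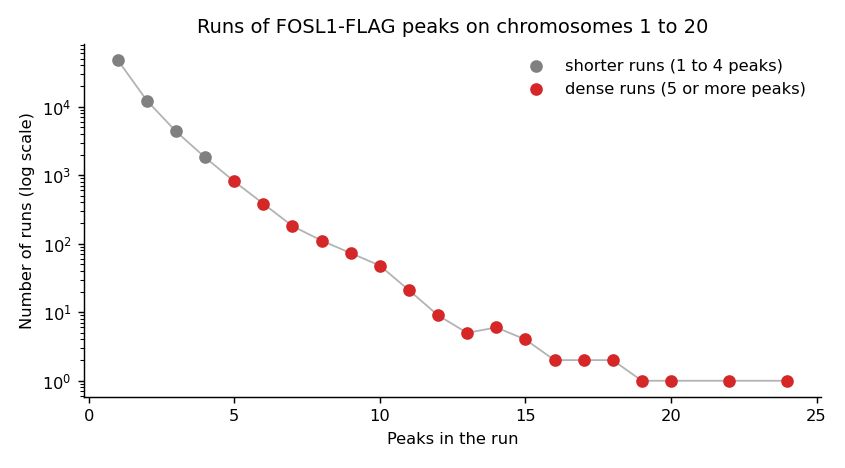
Number of runs (vertical axis, log scale) by the number of peaks in the run (horizontal axis), with shorter runs in grey and dense runs in red. The count falls from 47961 runs of 1 peak to 811 runs of 5 and 1 run of 24.

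A dense run stretched over a median of 10060 bp from its first to its last summit (5th to 95th percentile 4890 to 19876 bp). The shortest covered 1886 bp and the longest 43910 bp. Runs of 2 to 4 peaks had a median span of 2866 bp, which follows from their smaller number of peaks. Inside dense runs neighbouring summits lay a median of 1796 bp apart, against 2019 bp inside runs of 2 to 4 peaks. Of the 8723 distances inside dense runs, 7.94% were at most 500 bp, 19.8% over 500 and up to 1000 bp, 37.5% up to 2500 bp and 34.8% above that. The smallest distance between the facing edges of neighbouring peaks was 114 bp.

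Values just inside and just outside the thresholds lay close together. Inside dense runs 1046 of the 8723 distances were over 4000 bp, and at the outer flanks 349 of 3326 distances to the next peak outside (10.5%) were at most 6000 bp. The nearest distances to the limit were 5000 bp on the inside and 5004 bp on the outside. Peaks in runs of 4 and in runs of 5 had nearly equal values, with a median fold of 3.14 and 3.15, a median of 15 fragments in both and median widths of 211 and 214 bp.

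EPHB2, an Eph-family receptor for ephrin-B ligands with a role in cell sorting and migration, lay at a dense run. The 3 peaks that the paper places around the EPHB2 start site, among them peak 13 of the list, are the first 3 of a run of 6 on chromosome 5, from 155202741 to 155215836. From low to high coordinates the fragments at the summits numbered 17 (exact 95% Poisson interval 9.90 to 27.2) in the first peak, 14 (7.65 to 23.5) in the second, 39 (27.7 to 53.3) in peak 13, 21 (13.0 to 32.1) in peak 62493, 14 (7.65 to 23.5) in peak 61120 and 16 (9.15 to 26.0) in peak 21376. Peak 13 alone stood out, and its interval overlapped only that of peak 62493. That neighbour also had the highest background of the run. Over a local background of 8 fragments peak 62493 had a fold of 2.42, whereas peak 13 had a fold of 8.02 over a background of 3.95.

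The other folds in the run were 3.43 in the first peak, 2.13 in the second, 2.97 in peak 61120 and 3.68 in peak 21376. Of the 6 peaks, 5 had a q-value of at most 0.05. Peak 62493 at 0.0444 and peak 61120 at 0.0397 lay just inside it, and the second peak of the run at 0.331 did not reach it. The run was loose by the standard of dense runs. Its summits were 332, 1646, 4811, 3121 and 3185 bp apart in order, and the gap of 4811 bp after peak 13 lay close to the limit of 5000 bp. With a limit of 2500 bp the first 3 peaks would stand as a run of their own, below the size of a dense run. Its span of 13095 bp exceeded that of 74.6% of dense runs, while its median fold of 3.20 exceeded that of 59.7%. Another 9 dense runs lay within 1 Mb, and the nearest was 271898 bp away.

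**Figure D2:**
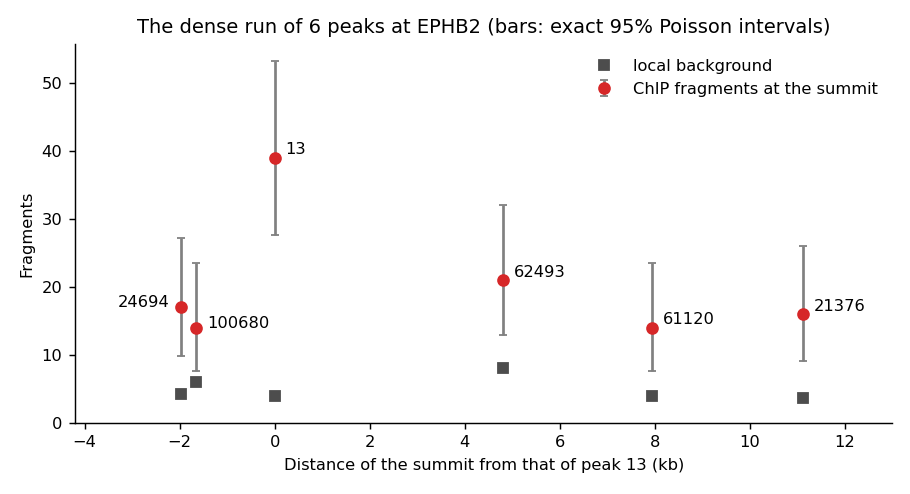
ChIP fragments at the summit (red circles, bars are exact 95% Poisson intervals) and local background (grey squares) of the 6 peaks in the dense run at EPHB2, by distance from the summit of peak 13 in kb (horizontal axis). Peak 13 stands at 39 fragments and the other 5 peaks between 14 and 21.

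The sequence just before the EPHB2 start site is shown because peak 13 is placed there by the paper. It was taken from RefSeq on the build GRCr8, minus strand, chr5:154360425-154360674, and covers the 250 bases that end at the annotated start. The peak itself was not matched to these bases, since the list uses rn6.
Ephb2: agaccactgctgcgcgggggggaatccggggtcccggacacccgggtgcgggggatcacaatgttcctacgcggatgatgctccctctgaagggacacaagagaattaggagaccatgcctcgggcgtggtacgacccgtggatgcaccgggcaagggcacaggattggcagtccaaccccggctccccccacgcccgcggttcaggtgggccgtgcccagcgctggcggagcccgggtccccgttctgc
The pattern TGANTCA, counted with any base in the middle, reads the same on both strands. It occurred 0 times in this window, so no base is in capitals. It occurred in 2122 of 33469 RefSeq promoters of the same 250 bases (6.34%). GC made up 68.4% of the window, more than in 89.7% of promoters, where the median was 51.2%. These counts describe the letters only. In the paper, FOSL1 raised the activity of a luciferase reporter with the EPHB2 promoter at peak 13, and not that of a reporter with a deletion in it. That assay used HEK cells, not Schwann cells. By the paper's numbering the deletion lies within the 250 bases before its start site. Whether that site is the annotated start used here was not checked, so the count of 0 is not set against the reporter result.

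The dense runs with the most peaks were long chains of modest peaks. The largest, on chromosome 17 from 9649206 to 9693116, had 24 peaks over 43.9 kb. Its folds ran from 2.38 over a median of 3.03 to 3.95, its fragments from 11 over a median of 17 to 30, and 17 of its peaks had a q-value of at most 0.05. No single peak dominated this run. Its background reached 9 fragments at the second peak in order, peak 7080, which held the most fragments, 30, but had a fold of only 3.07.

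The second largest, on chromosome 12 from 46793334 to 46825710, had 22 peaks over 32.4 kb, with folds of 2.23 to 5.27 and a median of 3.14. Its highest was peak 296, with 29 fragments (19.4 to 41.6) over a background of 4.65 and a q-value of 5.01e-09. Again 17 peaks reached a q-value of 0.05. The ninth in order, peak 1240, had a fold of 4.69 and 24 fragments (15.4 to 35.7). The intervals of these fragment numbers overlapped, so that peak 296 did not stand apart in this run by its fragments.

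The run of 20 peaks on chromosome 7 from 119058310 to 119100188 had folds of 2.23 to 4.49, and 13 of its peaks reached a q-value of 0.05. The run of 19 on chromosome 10 from 82741367 to 82777407 had folds of 2.42 to 4.33, and only 9 reached it. Chromosome 1 held both runs of 18, one from 221197299 to 221220467 with folds of 1.88 to 4.74 and the other from 86975672 to 87007731 with folds of 2.38 to 5.39. The share of peaks at a q-value of 0.05 was 47.4% in the run on chromosome 10 and 77.8% in the second run on chromosome 1. Over all autosomal peaks it was 60.7%. Each of these shares rests on few peaks, and a difference between the runs was not tested.

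The remaining runs among the 10 largest lay on chromosome 4 (17 peaks, from 58347782 to 58372032), chromosome 7 (17 peaks, from 12752929 to 12787389), chromosome 3 (16 peaks, from 9528768 to 9551800) and chromosome 12 (16 peaks, from 38873449 to 38898233). Their median folds were 3.20, 3.07, 2.69 and 3.40. The run on chromosome 3 had the lowest median fold of the 10 and the highest median background, 6 fragments, and 8 of its 16 peaks reached a q-value of 0.05.

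**Figure D3:**
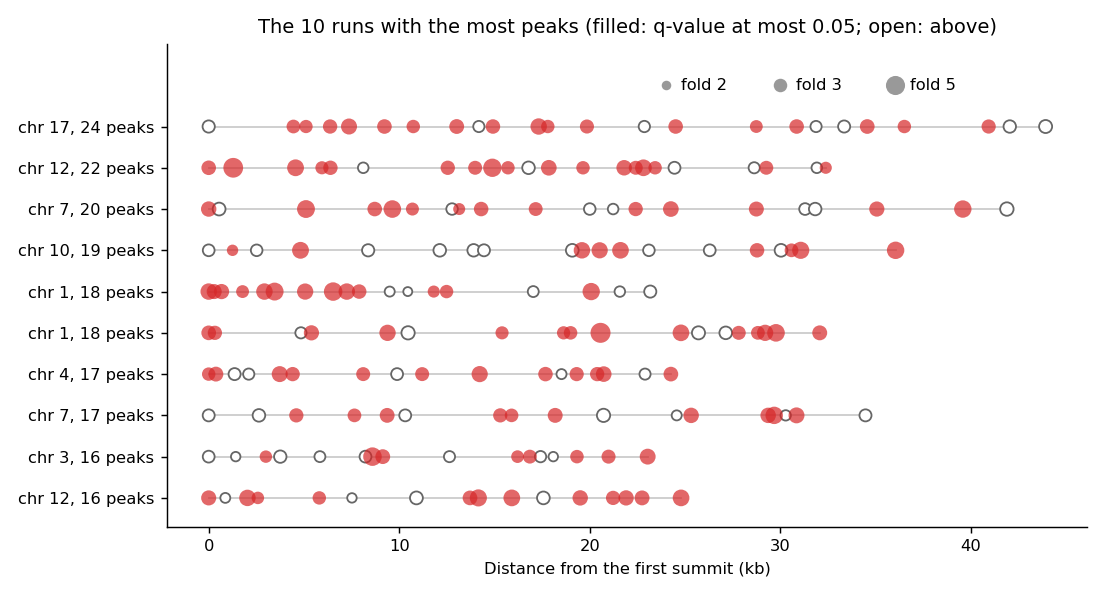
The 10 dense runs with the most peaks, 1 per line, with each peak placed by its distance from the first summit in kb (horizontal axis). The area of a circle grows with the fold, filled circles have a q-value of at most 0.05 and open ones a higher q-value. Filled and open circles occur in each of the 10 runs, from 9 filled of 19 on chromosome 10 to 14 of 18 in the second run on chromosome 1.

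The most compact dense runs had only 5 peaks. On chromosome 5 from 167666992 to 167668878, 5 summits lay within 1886 bp, or 2.65 peaks per kb, against a median of 0.577 peaks per kb over all dense runs. In order their fragments were 13, 21, 15, 16 and 20 and their folds 3.61, 5.46, 3.82, 2.41 and 2.98. The second peak had the highest fold, and the last peak, with nearly as many fragments, had a background of 6 and thus a lower one. The next most compact were a run on chromosome 8 from 68597893 to 68600245 with 2.13 peaks per kb and runs on chromosome 1 from 276325162 to 276327625 with 2.03 and from 199320198 to 199322690 with 2.01.

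The last of these was the most secure, since all 5 of its peaks had a q-value of at most 0.05. In order they had 22, 22, 33, 15 and 21 fragments. The middle peak of the run, peak 80, had a fold of 6.18 over a background of 4.46 and a q-value of 1.94e-12. By contrast the compact run on chromosome 3 from 175609575 to 175612263, at 1.86 peaks per kb, had folds of 2.78 to 3.48 and 2 peaks that reached a q-value of 0.05.

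The 5 runs with the highest single fold were chosen by that value, so that lower folds in their other peaks follow from the choice. The highest fold in any dense run was 8.30, in peak 16 on chromosome 1, with 35 fragments (24.4 to 48.7) and a width of 912 bp. It was the seventh of 8 peaks in a run from 228434882 to 228446788. The other 7 peaks had 12 to 20 fragments and folds of 2.15 to 4.70. The EPHB2 run was second by its highest fold.

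The third by highest fold lay on chromosome 1 from 163772369 to 163783267, where peak 22 had 36 fragments (25.2 to 49.8) and a fold of 7.40. The fourth, on chromosome 15 from 28007231 to 28017428, ended in peak 92 with 26 fragments (17.0 to 38.1), a fold of 7.39 and a width of 1124 bp. Next to it peak 404 had 23 fragments (14.6 to 34.5) and a fold of 5.95 at q = 2.69e-08, and the intervals of both overlapped. The fifth, on chromosome 1 from 46318593 to 46329809, also ended in its highest peak, peak 107, with 26 fragments and a fold of 7.15. In that run all 6 peaks reached a q-value of 0.05.

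Over all dense runs the highest fold of a run had a median of 4.01 (5th to 95th percentile 3.25 to 5.30), and the distance between the highest and lowest fold in a run had a median of 1.56. At least 1 peak with a fold of 5 or more was present in 153 of the 1663 runs (9.20%), and at least 1 peak with a q-value of at most 1e-05 in 295 (17.7%). Among all autosomal peaks, 1.43% had such a fold and 1.96% so low a q-value, and both counts of runs depend on these shares. The counts that follow depend in the same way on the 60.7% of autosomal peaks that reached a q-value of 0.05. In 149 runs (8.96%) every peak had a q-value of at most 0.05, in 542 (32.6%) at least 5 peaks did, and in 4 (0.241%) none did. The 3326 first and last peaks of runs and the 7060 inner peaks had close medians, with 15 fragments in both, folds of 3.12 and 3.13 and widths of 213 and 217 bp. A fold of at least 4 was less frequent at the ends, at 334 peaks or 10.04% (interval 9.04 to 11.1%) against 853 or 12.1% (11.3 to 12.9%). The shares at a q-value of 1e-05 or less, 2.68% and 3.44%, and at a width of 400 bp or more, 7.64% and 8.97%, were also lower at the ends, with intervals that overlapped.

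Compared with peaks in shorter runs, members of dense runs rested on more ChIP fragments but also on a higher background. They had a median of 15 fragments at the summit (5th to 95th percentile 11 to 23) against 13 (9 to 20). Their local background had a median of 4 fragments against 3.42, and 74.2% of members exceeded the median background of the other peaks. The local background was at its genome-wide floor of 2.24 fragments in 1.16% of members and in 8.62% of the other peaks. A single peak with 15 fragments has an exact 95% Poisson interval of 8.40 to 24.7, so that the difference shows over many peaks and not for one. The list holds only peaks of low p-value, so that a peak over a higher background needs more fragments to be listed. At an equal p-value such a peak also has a lower fold. How much of the differences in fragments and in median fold follows from this was not tested.

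The fold, in which both numbers enter, was slightly lower in dense runs, with a median of 3.13 against 3.20. Only 45.2% of members (interval 44.2 to 46.1%) exceeded the median fold of the other peaks. The medians fell with the size of the run, from 3.22 for peaks with no neighbour to 3.02 in runs of 10 or more, while the background rose over the same range from 3.16 to 4.24 fragments. The 95th percentile was 4.44 in members and 4.45 in the other peaks, the highest fold 8.30 and 8.84, and a fold of at least 4 was found in 11.4% of members and 11.9% of all autosomal peaks, so that these values kept the order of the medians. A fold of at least 5 was reached by 169 members (1.63%, interval 1.39 to 1.89%), against 1309 of the other peaks (1.41%, interval 1.33 to 1.49%) and 1.43% of all autosomal peaks, and these intervals overlapped.

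In terms of q-value, 6735 members (64.8%, interval 63.9 to 65.8%) reached 0.05, against 55980 of the other peaks (60.3%) and a background of 60.7% over all autosomal peaks. At the stricter q-value of 1e-05 stood 332 members (3.20%, interval 2.87 to 3.55%) and 1.83% of the other peaks (1.74 to 1.91%). Dense runs held 167 of the first 1000 autosomal peaks by p-value, or 16.7% (interval 14.4 to 19.2%), against 10.1% of all autosomal peaks. By fold they held 111 of the first 1000, or 11.1% (9.22 to 13.2%), close to their share of all peaks. The ranking by p-value takes in the number of fragments as well as the fold. The intervals treat peaks as independent, although neighbours share their surroundings.

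**Figure D4:**
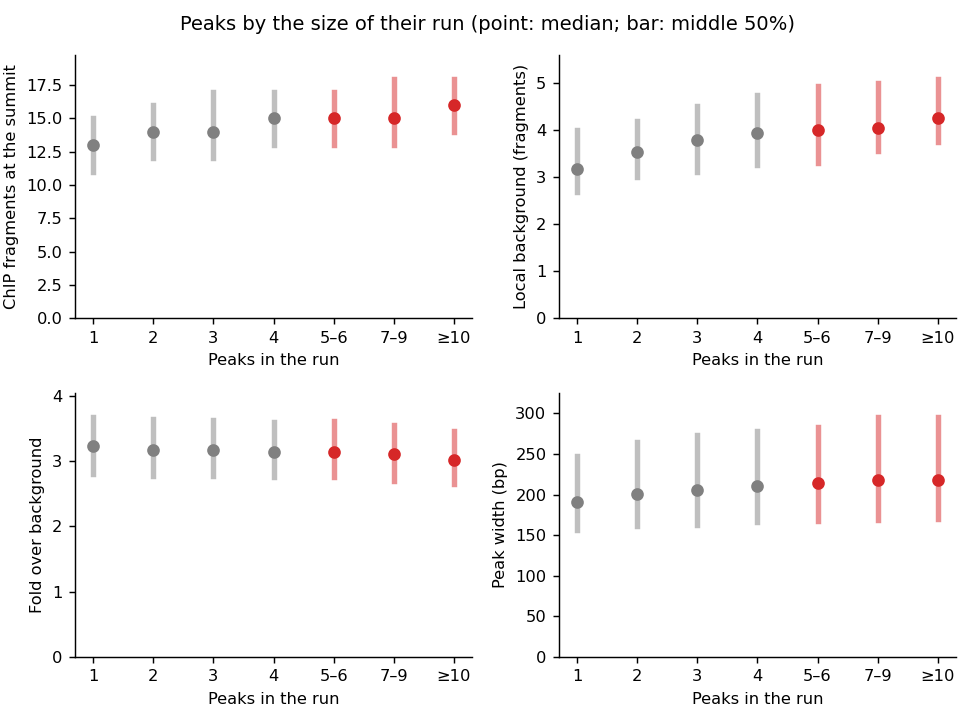
ChIP fragments at the summit, local background in fragments, fold over background and peak width in bp (vertical axes) by the number of peaks in the run (horizontal axes). Points are medians, bars the middle 50% of peaks, with shorter runs in grey and dense runs in red. From left to right fragments rise from 13 to 16, background from 3.16 to 4.24 and width from 191 to 218 bp, while the fold falls from 3.22 to 3.02.

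Because the background moved with the size of the run, members and other peaks were also set side by side within 7 ranges of local background. The lower median fold of dense runs was absent there. The median fold was higher in members in 6 ranges and equal in the range from 6 fragments upward. The median number of fragments was higher in members in only 2 ranges and equal in 5. The mean number was higher in 6 and lower in 1. A fold of at least 5 was more frequent in members in 5 ranges and less frequent in 2. Between 4 and 5 fragments, the range with the most members, 3058 members had a median fold of 3.11 and 18463 other peaks one of 2.98. The share with a q-value of at most 0.05 was higher in members in all 7 ranges, by 1.72 to 9.61 percentage points. Background enters the fold, so that the comparison within ranges is a description. Whether background accounts for the lower median fold, and why background is higher in dense runs, was not tested.

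Peaks in dense runs were also wider. Their median width was 216 bp (interval of the median 214 to 218 bp) against 197 bp, and 58.4% of them were wider than the median of the other peaks. A width of at least 400 bp was found in 887 members (8.54%) and in 4.73% of the other peaks, and the smallest width in the list, 150 bp, in 12.8% and 17.5%. Width rose with the size of the run, and in runs of 10 or more 10.4% of peaks reached 400 bp. The difference was present in all 7 ranges of background, by 6 to 25 bp between the medians. A neighbouring summit within 500 bp was found for 12.9% of members and 3.92% of the other peaks, a share that the choice of members by spacing raises.

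Dense runs were spread unevenly over the chromosomes. On chromosome 10, 1274 of 7198 peaks (17.7%, interval 16.8 to 18.6%) lay in dense runs and on chromosome 12, 482 of 3054 (15.8%, 14.5 to 17.1%). Chromosome 20 followed with 13.8% (12.5 to 15.1%). The interval of chromosome 12 overlapped those of both neighbours in this order. At the other end stood chromosomes 15 with 6.03%, 11 with 6.06%, 2 with 6.10% and 4 with 6.68%, whose intervals overlapped as well. Chromosomes 10 and 12 together held 270 of the 1663 dense runs (16.2%) and 9.93% of autosomal peaks.

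The share of peaks in dense runs followed the density of all peaks, which enters the choice of members. Over the 20 chromosomes Pearson's r between peaks per Mb and percent in dense runs was 0.91 and Spearman's rho 0.84, and without chromosomes 10 and 12 they were 0.78 and 0.78. These values are a description over chromosomes of 1 library, which share its depth. Chromosome 19 had 50.4 peaks per Mb, close to the 50.9 of chromosome 20, but 10.6% of its peaks (interval 9.50 to 11.7%) in dense runs, and its largest run had 9 peaks. The higher background and the greater width of members recurred on all 20 chromosomes, and the lower median fold on 18.

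**Figure D5:**
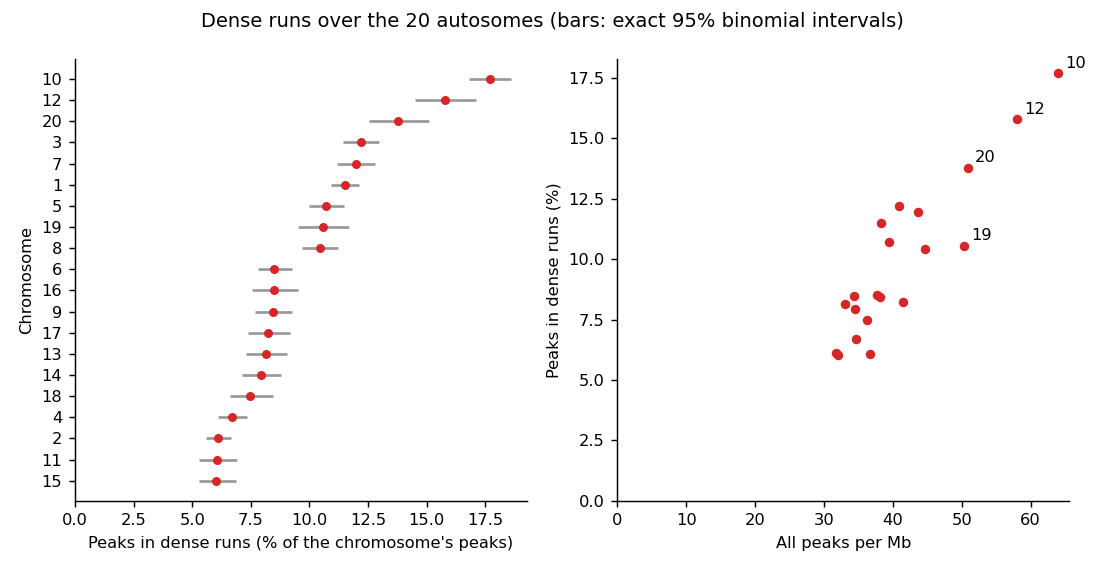
Left, percent of each chromosome's peaks that lie in dense runs (horizontal axis, bars are exact 95% binomial intervals) for the 20 autosomes. Right, the same percent (vertical axis) by the density of all peaks per Mb (horizontal axis). Chromosome 10 lies highest in both, at 17.7% and 64.0 peaks per Mb.

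Within chromosomes the dense runs gathered in turn. Of the 1663 runs, 758 (45.6%) had another dense run within 100000 bp and 146 (8.78%) within 10000 bp. Dense runs are chosen by the crowding of peaks, and a gap just over 5000 bp splits a crowded stretch into separate runs. Some closeness therefore follows from the rule, and no matching counts were made for shorter runs. Of 2599 windows of 1 Mb with at least 1 peak, 781 had a dense run, and 167 windows together held 50% of the members. The 5 windows with the most members lay at 12 to 13 Mb of chromosome 7 (116 members in 14 dense runs), 11 to 12 Mb of chromosome 3 (92 in 14), 109 to 110 Mb of chromosome 10 (87 in 12), 20 to 21 Mb of chromosome 16 (82 in 13) and 106 to 107 Mb of chromosome 10 (78 in 12). Their median backgrounds over all peaks were 4 to 4.46 fragments, against 3.465 over all autosomal peaks. Windows with similar numbers of peaks were not compared.

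The first of these windows showed what such a gathering looks like. It held 223 peaks, of which 116 (52.0%) were members, and 69 of these reached a q-value of 0.05. The share that reached it was 64.8% over all members and 60.7% over all autosomal peaks. Of the 14 dense runs in the window, 3 had 14 or more peaks. They lay from 12395474 to 12415353 with 15 peaks, from 12589375 to 12611978 with 14 and from 12752929 to 12787389 with 17. Their median folds were 2.75, 3.01 and 3.07. The highest fold in any of the 14 runs, 6.84, was not in these but in a run of 6 peaks from 12288789 to 12299650. Several runs lay barely apart, as the run of 17 peaks ended 6008 bp before the next dense run of 6.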

How the data were processed

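The authors deposited 1 list of peaks with 4 values for each, a score, a fold (the ratio of ChIP to local background), and p- and q-values, both as −log10. The score, which is the −log10 p-value times 10 without its decimals, was not used. Per the labels, libraries were size selected at 250 to 450 bp after 13 PCR cycles and made from 10 ng of DNA. Bowtie2 2.2.6, SAMtools 1.7 and deepTools 3.3.0 appear in the submitters' processing notes. The sources used here do not say which program called the peaks. A human build is also listed there, but sequence names and positions fit rn6. Labels and paper differ on fragmentation, sonication alone in the labels and with micrococcal nuclease in the paper.

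Whole ChIP fragments and the local background at each summit were recovered from fold and p-value, taking the fold as a ratio with a pseudocount of 1 and the p-value as a Poisson tail. All 104960 pairs gave back the −log10 p-value within 0.001, with 1 fitted factor that puts the ChIP depth at 1.01 times that of the input. The steps were tested on simulated data. The list does not give the total depth of the libraries. Distances were taken between summits, spans from first to last summit, and intervals at 95% (Clopper-Pearson for shares, exact Poisson for fragments, order statistics for medians). They cover counting error only, and PCR copies are not independent molecules. The members, thresholds and alternatives were chosen with earlier results of these data known. The alternatives changed the distance, the number of peaks, the way distances were taken and the peaks that entered. Runs were named as the 10 with the most peaks, the 5 with the most peaks per kb, the 5 with the highest fold and the one at EPHB2. The window on chromosome 7 was described in detail because it held the most members, a choice made after the values were seen. The planned gene lists, cell type markers and motif content of peaks were not analysed here, for want of an rn6 sequence or annotation. Scripts ran under Python 3.11.15 (scipy 1.17.1, numpy 2.4.6, pandas 2.3.3, matplotlib 3.10.9).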

Additional observations from a re-analysis of the deposited data

How the results depend on the processing

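No paired analysis was possible because there was only 1 ChIP and 1 input library. Across 10 alternatives for 7 results, 32 of 70 values stayed within 1.5 times the reported count or within the reported 95% interval, and 38 moved. By construction, the numbers of peaks and runs depended on the rule. The 10386 peaks in 1663 dense runs became 2612 in 457 (2.53% of peaks, median span 5375 bp) with summits at most 2500 bp apart, 29089 in 3987 (28.2%, 20234 bp) with 10000 bp, 17662 in 3482 (17.1%, 7765 bp) with 4 peaks and 6331 in 852 (6.13%, 12512 bp) with 6. With only peaks at a q-value of at most 0.05 they were 2512 in 433 (4.01%), and with the highest 20% by fold 17 in 3 (0.0822%, median span 7245 bp), where fewer peaks were left to chain. With distances between facing edges the median span was 10572 bp and the share 10.8%, and with summits within 500 bp counted as 1 they were 10689 bp and 8.64%.

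The share of members above the median fold of the other peaks, 45.2% as reported, was 46.1% with 2500 bp, 43.2% with 10000 bp, 43.8% with 6 peaks, 40.3% at a q-value of 0.05 and 52.9% among the highest 20% by fold. The last rests on 17 peaks and is the one value on the other side of 50%; the cause was not tested. The share wider than the median was 60.6% with 2500 bp and 61.3% at a q-value of 0.05. The share at a q-value of 0.05 was 66.5% with 2500 bp, 63.7% with 10000 bp, and 100% by construction among peaks selected on q-value or on the highest 20% by fold. Leaving out the 22 peaks with a background 10 times the genome-wide one or higher or adding chromosome X and the other sequences moved none of the 7 results.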

Other observations

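Outside the autosomes, 3 dense runs of 5 peaks each lay on chromosome X, from 11570830 to 11582625, from 156464481 to 156468463 and from 156479992 to 156491108. Their folds were 3.35 to 4.71, 2.38 to 4.28 and 2.48 to 4.90, with 11 to 18, 9 to 13 and 9 to 15 fragments at the summits. Of the 22 autosomal peaks with a background 10 times the genome-wide one or higher, 0 were members of a dense autosomal run, and the highest background of a member was 13 fragments.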
